A study of Mus musculus with 8 samples.

Results

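Expression of 6 genes of the monocyte lineage, Ly6c2, Fcgr1, Ms4a6c, Lyz2, F13a1 and Fn1, was examined in DC-restricted progenitors (CDPs) of high fat diet (HFD) and chow-fed (CF) mice. The genes were chosen by name, as established marker genes of monocytes, with earlier results of these data known. Each symbol was matched through its Ensembl identifier to GENCODE vM21. All 6 were among the 16119 genes of the deposited count table, and all 6 passed the filter on low counts that left 15837 genes for testing.

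The donors were C57BL/6J males. HFD mice had received a diet with 60 kcal% fat for 16 weeks (up to 16 weeks in the paper) and are labelled DIO (diet-induced obese). CF mice were controls on 10 kcal% fat. By the methods, mice of both diets were 16 weeks old when bought. CDPs were sorted from bone marrow (BM) by flow cytometry as lineage-negative cells with intermediate c-Kit and low Sca-1 that carried CD115 and Flt3, about 50000 per replicate, with 4 replicates per diet sequenced as total RNA after depletion of ribosomal RNA. The methods call the 4 replicates of a diet independent and isolated in parallel, but the sources used here do not tie each replicate to an animal or a pool, so that p-values measure the spread between these sorted samples.

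Monocytes and DCs arise in BM from shared progenitors, and CDPs are the stage at which potential for conventional and plasmacytoid DCs is kept while the path to monocytes is largely left. Classical monocytes are known by high surface Ly6C, by the Fc receptor CD64, and by a granule and matrix program that includes lysozyme, the A subunit of coagulation factor XIII and fibronectin. Several of these transcripts are shared with granulocytes, lysozyme above all, while the receptor CD115, product of Csf1r, marks monocytes and their progenitors and was itself used in the sort.

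The sequences upstream of these genes are shown because most members, though not Ms4a6c, moved together across libraries, as described further on, and Ms4a6c for comparison. RefSeq start sites on GRCm38.p6 gave promoter windows for 5 of the 6 members. The windows were searched on both strands for AGGAAGT, a core bound by ETS factors such as PU.1, for TTGCNNAA, a C/EBP core, and for an ETS and IRF composite, GGAA and GAAA with any 2 bases between them, whose GGAA letters can be shared with the first motif. AGGAAGT was present in 5 of 5 members and in 6 of their 7 windows, against 10.7% of 27025 genes and 9.35% of 32851 windows of equal length. This motif was chosen after the member sequences had been seen, and a match describes letters and not binding. TTGCNNAA and the composite were found in 0 of 5, against 12.2% and 3.16% of all genes. In the stretches below, written 5′ to 3′ on the strand of the gene, capitals mark AGGAAGT or its reverse complement ACTTCCT. The stretches of Ly6c2, Ms4a6c, Fcgr1 and Lyz2 end before the first annotated exon, and Lyz1 is ended at the same distance as Lyz2. For F13a1, whose second start site lies within the annotated gene, only 30 bases around the match are given, because another annotated transcript of the gene covers them.
Ly6c2 chr15:75111972-75112221 (- strand): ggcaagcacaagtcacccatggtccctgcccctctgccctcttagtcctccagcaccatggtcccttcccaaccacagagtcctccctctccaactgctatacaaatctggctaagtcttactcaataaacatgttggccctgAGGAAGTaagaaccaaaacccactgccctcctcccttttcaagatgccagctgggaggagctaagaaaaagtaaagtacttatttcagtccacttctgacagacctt
Ms4a6c chr19:11469118-11469365 (+ strand): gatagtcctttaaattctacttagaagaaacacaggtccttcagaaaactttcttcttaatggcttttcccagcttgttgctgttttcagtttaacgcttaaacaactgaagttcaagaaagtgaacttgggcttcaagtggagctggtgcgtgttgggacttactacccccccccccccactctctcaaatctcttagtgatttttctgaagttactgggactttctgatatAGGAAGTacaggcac
Fcgr1 chr3:96293970-96294219 (- strand): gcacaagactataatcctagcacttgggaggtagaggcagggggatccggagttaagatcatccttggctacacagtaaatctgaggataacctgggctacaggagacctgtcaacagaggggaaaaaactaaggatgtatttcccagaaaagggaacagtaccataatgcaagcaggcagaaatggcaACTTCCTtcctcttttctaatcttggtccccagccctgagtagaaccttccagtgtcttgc
Lyz2 chr10:117282322-117282522 (- strand): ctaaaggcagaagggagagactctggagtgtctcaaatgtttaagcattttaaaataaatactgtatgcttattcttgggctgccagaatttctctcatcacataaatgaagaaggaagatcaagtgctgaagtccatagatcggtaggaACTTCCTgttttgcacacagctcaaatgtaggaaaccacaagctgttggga
Lyz1 chr10:117292918-117293118 (- strand): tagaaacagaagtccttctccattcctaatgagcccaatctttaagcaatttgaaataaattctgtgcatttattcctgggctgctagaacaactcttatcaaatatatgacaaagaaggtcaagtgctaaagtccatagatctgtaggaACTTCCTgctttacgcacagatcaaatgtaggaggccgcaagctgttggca
F13a1 chr13:37049232-37049261 (- strand): gtgggagccgttAGGAAGTtatttaagagc

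In Ly6c2 the match began 107 bases before the start site, in Ms4a6c 17 bases before it and in F13a1 36 bases before the second of its start sites. Ly6c2 and F13a1 each held a further match just after the start, at positions 28 and 16, beyond the stretches shown. In Fcgr1 and Lyz2 the match lay on the opposite strand, with its first base 61 and 100 bases before the start. Lyz1, the neighbouring lysozyme gene and not a member, is shown beside Lyz2 because it carried the match at the same place. Over the whole upstream windows, Lyz2 and Lyz1 were identical at 79.4% of aligned columns, and their longest transcripts at 92.0%.

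Total counts ranged from 28203651 to 38969160 in HFD and from 32575696 to 48409689 in CF. Of all 15837 genes tested, 67 passed an adjusted p of 0.05 in edgeR's quasi-likelihood test (Benjamini-Hochberg over all genes), which is 0.423%, and all of them were lower in HFD. Other settings also called genes higher in HFD, among them DESeq2 with 498 lower and 71 higher, and edgeR without HFD replicate 1 with 166 lower and 34 higher. The antigens of the sort were measured in every library, with Csf1r at 79.4 to 133 CPM (counts scaled to library size by TMM), Flt3 at 88.8 to 378 CPM and Kit at 34.2 to 53.6 CPM. Libraries stood apart in other markers. HFD replicate 1 was highest for 15 of 15 neutrophil genes, 7 of 7 granulocyte progenitor genes and 9 of 9 erythroid genes. Its summed neutrophil level, led by S100a9 and S100a8, was 20060 CPM, against 947 to 3509 CPM in the other HFD replicates and 1937 to 6501 CPM in CF, and its Flt3 level was the lowest of the 8. CF replicate 1 had the lowest summed neutrophil level of its group and the lowest TMM factor, 0.80. In sorted populations, fewer cells of a type and less RNA per cell cannot be told apart.

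For none of the 6 monocyte lineage genes was a difference between the diets larger than the spread of the replicates detected. With edgeR, 0 of 6 were called, where 0.423% of all genes were called, and 0 of 6 reached an unadjusted p of 0.05, where 8.56% of all genes did. DESeq2 and limma voom also called 0 of 6, where they called 569 of 16119 and 70 of 15837 genes. A linear model for each gene called 0 of 15837 genes, so that its 0 of 6 could not have come out otherwise. The CPM of the diets overlapped for all 6 members, while 6.16% of all genes had groups that did not overlap. Of the 6, 4 had a log2 fold change (HFD minus CF) below 0 and 2 above, with a median of -0.23, and with library size alone as scaling Ms4a6c also came above 0. Over all genes tested the median was 0.05, with 40.3% below 0.

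**Figure D1:**
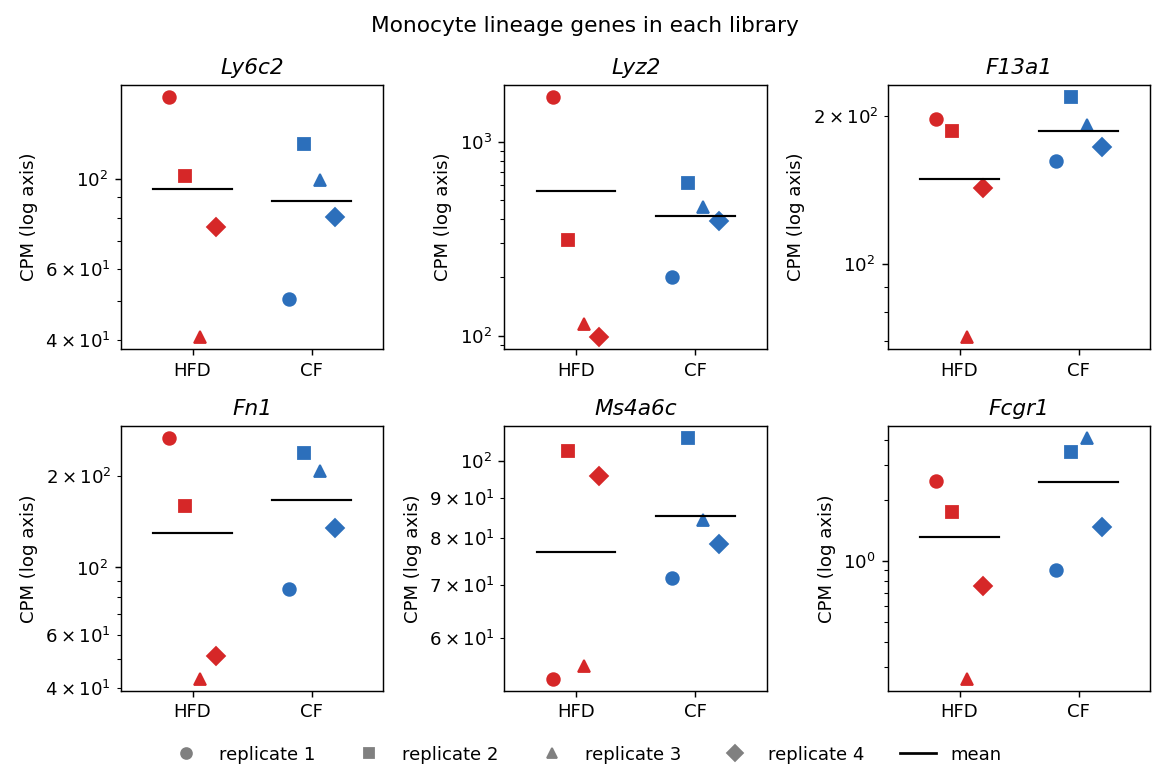
CPM of the 6 genes in each library on log axes, one panel per gene, with HFD in red, CF in blue, a marker shape for each replicate number and a black line at the mean of each diet. The diets overlap in every panel, and HFD replicate 1 is the highest library for Ly6c2, Lyz2 and Fn1 but the lowest for Ms4a6c.

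Ly6c2 encodes one of the GPI-anchored proteins recognised as Ly6C, the antigen that separates classical from patrolling monocytes (ENSMUSG00000022584, GRCm38 chromosome 15, 75108158 to 75111970, minus strand). Its level was 159, 102, 40.5 and 76.0 CPM in HFD replicates 1 to 4 and 50.3, 122, 99.6 and 80.7 CPM in CF replicates 1 to 4. HFD held both the highest and the lowest library, replicates 1 and 3, and the CF values lay between them. The means were 94.5 ± 50.1 CPM in HFD and 88.1 ± 30.3 CPM in CF (SD, n = 4 each). The log2 fold change was 0.10 with an SE of 0.41 and a 95% interval from -0.84 to 1.04 (edgeR, adjusted p = 0.98). Its direction rested on the libraries named above, since it was -0.27 without HFD replicate 1 and -0.09 without CF replicate 1, neither of which passed the test (edgeR, adjusted p = 0.76 and 1.00). Ly6c1, a close relative that endothelial cells also express, held 11.6% to 18.0% of the counts of the pair, and 7.41% of the 75-base stretches of the longest Ly6c2 transcript recur in Ly6c1. Summed over both genes, the log2 ratio of the diet means was 0.10, as for Ly6c2 alone (exact permutation test over 70 splits, two-sided, p = 0.97 for the sum).

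Fcgr1 encodes CD64, the high-affinity receptor for IgG (ENSMUSG00000015947, chromosome 3, 96282909 to 96293969, minus strand). It was the scarcest member, with 10 to 129 counts per library. The level was 2.50, 1.76, 0.262 and 0.752 CPM in HFD replicates 1 to 4 and 0.904, 3.47, 4.06 and 1.48 CPM in CF replicates 1 to 4. The 2 highest libraries were from CF and the 2 lowest from HFD, while between them HFD replicates 1 and 2 were above CF replicates 1 and 4. The means were 1.32 ± 1.01 CPM in HFD and 2.48 ± 1.52 CPM in CF. The log2 fold change, -0.91 with an SE of 0.69, was the largest in size of the 6, yet its 95% interval ran from -2.49 to 0.67 (edgeR, adjusted p = 0.82). It was -1.43 without HFD replicate 1, -0.57 without HFD replicate 3 and likewise -0.57 without CF replicate 3 (edgeR, adjusted p = 0.40, 0.86 and 0.99). Without replicate 1 of both diets it was -1.71, at an unadjusted p of 0.027 (edgeR, adjusted p = 0.24). Counting alone gives a coefficient of variation (CV) of 15.1% in HFD and 11.0% in CF at these counts, where 76.2% and 61.4% were measured.

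Ms4a6c belongs to the membrane-spanning 4A family, several members of which are expressed on monocytes and macrophages (ENSMUSG00000079419, chromosome 19, 11469366 to 11482192, plus strand). Its level was 53.3, 103, 55.3 and 95.9 CPM in HFD replicates 1 to 4 and 71.2, 107, 84.3 and 78.6 CPM in CF replicates 1 to 4. HFD replicates 1 and 3 were below all CF replicates, and HFD replicates 2 and 4 were above all but CF replicate 2. The means were 76.9 ± 26.3 CPM in HFD and 85.3 ± 15.4 CPM in CF. The fitted log2 difference was -0.15, with an SE of 0.24 (95% interval -0.70 to 0.41; edgeR, adjusted p = 0.94). It was -0.01 without HFD replicate 1, -0.02 without HFD replicate 3 or CF replicate 2, and -0.32, -0.31 and -0.23 without HFD replicate 2, HFD replicate 4 and CF replicate 1. It was the least variable member, 2.01-fold between its highest and lowest library. A non-coding gene on the other strand, BE692007, overlaps 12027 bases of it, and 53.4% of the 75-base stretches of the longest Ms4a6c transcript also occur in BE692007. BE692007 was itself counted at 61.2% to 97.2% of the Ms4a6c count in each library, at 32.6 to 84.3 CPM, and its own log2 fold change was -0.33 (edgeR, adjusted p = 0.83). Whether strand was used in counting is not given in the sources used here, so reads of Ms4a6c and BE692007 cannot be told apart.

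Lyz2 encodes lysozyme M, the bacteriolytic enzyme of monocytes, macrophages and neutrophils (ENSMUSG00000069516, chromosome 10, 117277331 to 117282321, minus strand). Its level was 1709, 311, 115 and 98.0 CPM in HFD replicates 1 to 4 and 202, 613, 460 and 392 CPM in CF replicates 1 to 4. HFD replicate 1 was above all other libraries, HFD replicates 3 and 4 were below all CF replicates, and HFD replicate 2 lay within the CF range. The means were 558 ± 773 CPM in HFD and 417 ± 171 CPM in CF. The log2 fold change was 0.42 with an SE of 0.88 and a 95% interval from -1.58 to 2.42 (edgeR, adjusted p = 0.96), but the difference of mean log2 CPM had the other sign, -0.47 (exact permutation test, two-sided, p = 0.69). Without HFD replicate 1 the log2 fold change was -1.25 with an SE of 0.49, at an unadjusted p of 0.035 (edgeR, adjusted p = 0.30), and 9.76% of all genes were lower at an unadjusted p under 0.05 in the same fit. Without CF replicate 1 it was 0.19. Without both HFD replicate 1 and CF replicate 1 it was -1.48 with an SE of 0.44, at an unadjusted p of 0.012, where 10.6% of all genes were lower at 0.05 (edgeR, adjusted p = 0.16), and the remaining groups did not overlap, as for 11.8% of all genes lower in HFD. Lyz1 held 5.38% to 5.96% of the counts of the lysozyme pair in every library, while Lyz2 itself ranged 17.4-fold, or 6.26-fold without HFD replicate 1. Of the 75-base stretches of the Lyz2 transcript, 5.96% recur in Lyz1, and with both genes summed the log2 ratio of the diet means was 0.43, against 0.42 for Lyz2 alone.

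F13a1 encodes the A subunit of coagulation factor XIII, a transglutaminase that crosslinks fibrin and fibronectin (ENSMUSG00000039109, chromosome 13, 36867178 to 37050244, minus strand). Its level was 197, 186, 71.1 and 143 CPM in HFD replicates 1 to 4 and 162, 218, 192 and 173 CPM in CF replicates 1 to 4. HFD replicate 3 was far below the others, HFD replicate 4 just below the CF range and HFD replicates 1 and 2 within it. The means were 149 ± 57.0 CPM in HFD and 186 ± 24.8 CPM in CF. The log2 fold change was -0.32 with an SE of 0.29 and a 95% interval from -0.97 to 0.33 (edgeR, adjusted p = 0.85). It was -0.09 without HFD replicate 3 and -0.48 without HFD replicate 1.

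Fn1 encodes fibronectin, a matrix glycoprotein bound by integrins and a substrate of factor XIII (ENSMUSG00000026193, chromosome 1, 71585520 to 71653200, minus strand). Its level was 267, 159, 43.0 and 51.1 CPM in HFD replicates 1 to 4 and 84.8, 238, 209 and 135 CPM in CF replicates 1 to 4. HFD replicate 1 was again the highest library, and HFD replicates 3 and 4 were below all CF replicates. The means were 130 ± 105 CPM in HFD and 167 ± 69.5 CPM in CF. The fitted log2 difference was -0.36, with an SE of 0.60 (95% interval -1.72 to 1.00; edgeR, adjusted p = 0.94). Without HFD replicate 1 the log2 fold change was -0.98, without CF replicate 1 it was -0.58 and without HFD replicate 3 it was -0.07. It was -0.14 without HFD replicate 4 or CF replicate 2, and -0.23 without CF replicate 3.

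**Figure D2:**
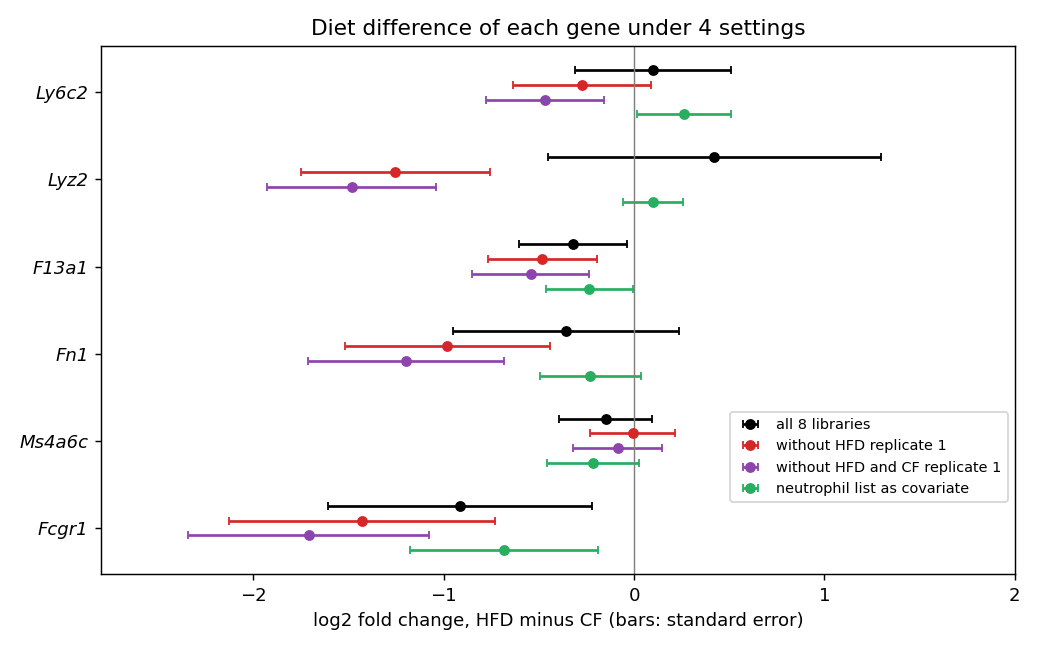
Log2 fold change of each gene, HFD minus CF, with its standard error, from edgeR with all 8 libraries, without HFD replicate 1, without replicate 1 of both diets, and with the mean of the neutrophil list as a covariate. Lyz2 moves from 0.42 to -1.25 and -1.48 when the libraries are left out and is 0.10 with the covariate, whereas Ms4a6c stays between -0.22 and -0.01.

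Per length of merged exons, Lyz2 was the most abundant member at 371 ± 398 CPM per kb (SD over 8 libraries), or 238 ± 144 without HFD replicate 1. Ms4a6c followed at 39.6 ± 9.97, Ly6c2 at 33.3 ± 14.0, F13a1 at 24.9 ± 6.72, Fn1 at 12.7 ± 7.27 and Fcgr1 at 0.734 ± 0.520 CPM per kb. Lyz2 was above Ms4a6c, F13a1 above Fn1, and Fn1 above Fcgr1 in 8 of 8 libraries. Ms4a6c and Ly6c2 did not differ beyond their spread, with a difference of 6.23 ± 16.2 CPM per kb and this order in 7 of 8 libraries, nor did Ly6c2 and F13a1, with 8.44 ± 9.85. The difference of Lyz2 and Ms4a6c, 331 ± 402 CPM per kb, was also smaller than its SD, although Lyz2 was higher in every library. With the longest transcript as length, F13a1 came to 42.4 CPM per kb, above Ly6c2 at 34.1 and below Ms4a6c at 44.0, so that the order of F13a1 and Ly6c2 turned.

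Spread between replicates was larger in HFD than in CF for every member. The CV was 53.0% in HFD and 34.4% in CF for Ly6c2, 138% and 40.9% for Lyz2, and 81.1% and 41.7% for Fn1. For F13a1 it was 38.2% and 13.3%, and for Ms4a6c 34.2% and 18.0%. Of all genes tested, 67.5% had the larger CV in HFD. Without HFD replicate 1 the CV of Lyz2 in HFD was 67.8%, that of Fn1 76.7% and that of Ly6c2 42.3%, and it was still larger in HFD for 6 of 6 members, and for 52.9% of all genes. Poisson counting error alone gives a CV of at most 1.91% in these 5 genes. The biological coefficient of variation fitted by edgeR was 0.81 for Lyz2, above that of 96.9% of all genes, 0.67 for Fcgr1 and 0.57 for Fn1. It was lower for Ly6c2 at 0.41, F13a1 at 0.30 and Ms4a6c at 0.26, the last at the 54.2 percentile of all genes.

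All members but Ms4a6c moved together across the 8 libraries. Of 15 pairs of members, 9 had a Pearson r of log2 CPM past an adjusted p of 0.05 (exact permutation over all pairings of n = 8 libraries, Benjamini-Hochberg over 15), and none of these 9 included Ms4a6c. The share of pairs of other genes that would pass was not computed, so that the 9 of 15 are not shown to be particular to these genes. The matrix gene Fn1 and Fcgr1 had r = 0.94 and rho = 0.90 (exact permutation, adjusted p = 0.0014 and 0.0098), and r = 0.89 without the 2 libraries farthest from the median of Fn1. Lyz2 and Fn1 had r = 0.93 and rho = 0.95 (exact permutation, adjusted p = 0.0014 and 0.0056), and r = 0.98 without 2 libraries. F13a1 and its substrate Fn1 had r = 0.84 and rho = 0.98 (exact permutation, adjusted p = 0.0014 and 0.0056), and r = 0.90 without 2 libraries. Lyz2 and F13a1 passed by rank alone, with rho = 0.93 (exact permutation, adjusted p = 0.0056) and r = 0.69 (adjusted p = 0.093). Without the 2 libraries farthest from the median of the first gene, r of the 9 pairs ranged from 0.63 (Ly6c2 and Fcgr1) to 0.98. After each diet's mean was removed, r of the 9 pairs ranged from 0.80 to 0.96.

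Ms4a6c followed a course of its own, with counts that cannot be told apart from those of BE692007 (r = 0.86 between them, no test). Its r with the other members ran from -0.15 for Lyz2 to 0.50 for F13a1 (exact permutation, adjusted p = 0.71 and 0.29). The value for Lyz2 rested on HFD replicates 1 and 4, without which it was 0.85. In CF alone, with n = 4 and no test, r of Ms4a6c with the other members was 0.77 to 0.98.

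**Figure D3:**
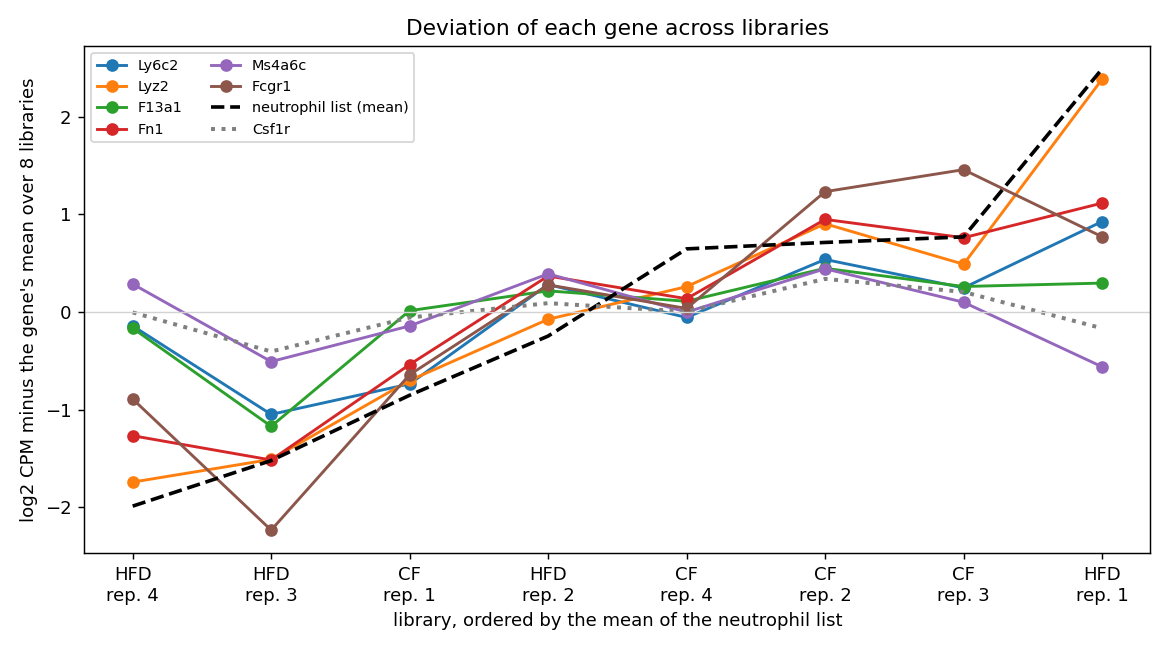
Log2 CPM of each gene minus its mean over the 8 libraries, with libraries ordered by the mean of the neutrophil list (dashed line) and Csf1r as the dotted line. Lyz2 keeps close to the dashed line from -1.74 in HFD replicate 4 to 2.38 in HFD replicate 1, while Ms4a6c is at -0.56 in HFD replicate 1 and stays nearer to Csf1r.

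The members were then set against 2 outside measures, the mean log2 CPM of 15 neutrophil genes and Csf1r, which gave 12 relations. Lyz2 had r = 0.99 and rho = 0.98 with the neutrophil mean (exact permutation, n = 8, adjusted p = 0.00089 and 0.0048), and r = 0.97 without HFD replicates 1 and 4. Fn1 followed with r = 0.91 and rho = 0.93 (exact permutation, adjusted p = 0.0045 and 0.013), and r = 0.92 without the same libraries. Ly6c2 and Fcgr1 had r = 0.80 and 0.77 (exact permutation, adjusted p = 0.036 and 0.042) and rho = 0.81 and 0.88 (adjusted p = 0.044 and 0.022), with 0.87 and 0.91 for r without these libraries. F13a1 passed by rank, with rho = 0.88 (exact permutation, adjusted p = 0.022), and had r = 0.65 (adjusted p = 0.12). For Ms4a6c r was -0.20 and rho -0.10 (exact permutation, adjusted p = 0.63 and 0.84), and HFD replicates 1 and 4 decided its sign, since r was 0.72 without them. Within diets, the r of Lyz2 with the neutrophil mean was 0.99. The part that neutrophil RNA has in the levels of Lyz2, Fn1, Ly6c2 and Fcgr1 was not tested. With the neutrophil mean as a covariate in edgeR, the SE of the log2 fold change of Lyz2 was 0.16 instead of 0.88 and that of Fn1 0.27 instead of 0.60. In that fit 0 of 6 members were called, where 665 of 15837 genes were.

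Of the members, Ms4a6c had the highest r with Csf1r. The relation had r = 0.84 and rho = 0.86 (exact permutation, n = 8, adjusted p = 0.030 and 0.026), and r = 0.72 without HFD replicate 3 and CF replicate 2. F13a1 had r = 0.80 with Csf1r and Fcgr1 also r = 0.80 (exact permutation, adjusted p = 0.036 for both), with rho = 0.62 and 0.71 (adjusted p = 0.17 and 0.099). Both rested on those 2 libraries, without which r was 0.14 and 0.40. Ly6c2, Fn1 and Lyz2 had r = 0.55, 0.61 and 0.31 with Csf1r, none past an adjusted p of 0.05 (exact permutation, adjusted p = 0.18, 0.15 and 0.50).

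**Figure D4:**
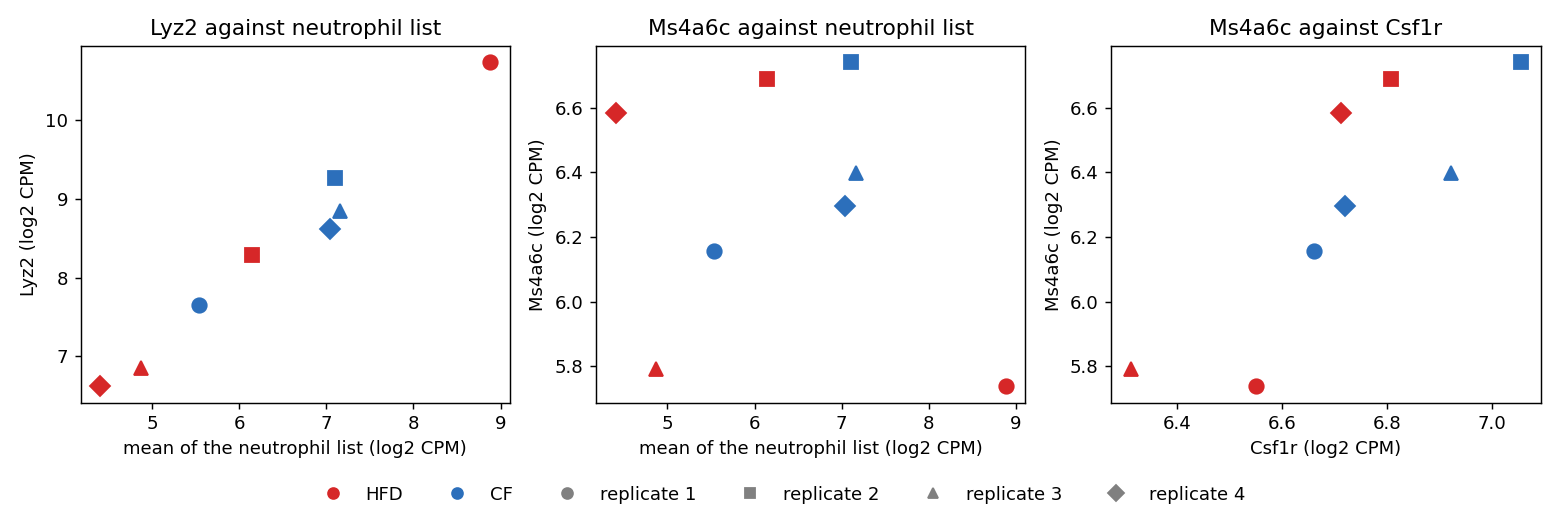
Log2 CPM of Lyz2 and Ms4a6c against the mean log2 CPM of the neutrophil list, and of Ms4a6c against Csf1r, with a point for each library, HFD in red, CF in blue and a marker shape for each replicate number. Lyz2 lies close to a line against the neutrophil mean (r = 0.99), while Ms4a6c scatters more widely around one against Csf1r (r = 0.84) and has r = -0.20 against the neutrophil mean, which is 0.72 without HFD replicates 1 and 4.

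A ratio to Csf1r does not depend on how libraries are scaled, and it relates each gene to the CD115 transcript of the sorted cells. None of the 6 log2 ratios passed the test between the diets (exact permutation test, two-sided, p = 0.31 to 0.86, where 0.029 is the smallest p possible). The F13a1 to Csf1r ratio was nearly constant in CF, with log2 ratios of 0.68, 0.72, 0.66 and 0.71 in replicates 1 to 4. In HFD it was 1.07, 0.73, -0.16 and 0.45, so that HFD replicates 3 and 4 lay below all CF replicates and HFD replicates 1 and 2 above them. The Ms4a6c to Csf1r ratio was -0.44 ± 0.09 in CF and -0.39 ± 0.34 in HFD on the log2 scale. For Lyz2 the log2 ratio was 1.76 ± 0.52 in CF and 1.53 ± 1.89 in HFD (SD, n = 4 each).

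Genes with the most similar pattern were taken from 6655 protein-coding genes with a mean of at least 10 CPM, by Pearson r of log2 CPM over the same 8 libraries, as a description with no test. Nearest to Ly6c2 were Lyn, a Src family kinase (r = 1.00), the calcium-binding S100a6 (0.99) and Gm14548 (0.99). Nearest to Lyz2 were Lyz1 (1.00), Mgst1 (1.00) and Camp, the cathelicidin of neutrophil granules (0.99). Nearest to Fn1 were Samhd1, a dNTP hydrolase (0.99), the matrix gene Emilin2 (0.97) and Fam129a (0.97). For Fcgr1 they were the IL-13 receptor chain Il13ra1 (0.99), Rap2b (0.97) and the interferon-inducible Ifi204 (0.97). For F13a1 they were Wsb1, Cask and Ctbp2 (0.97, 0.96 and 0.96), and for Ms4a6c Elmo2, Ehd4 and Themis2 (0.97 each). All of these genes share the libraries and their depth with the members.

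Further monocyte genes, and relatives and partners of the members, were compared in the same fit. Of 79 genes in these 5 lists, 76 were tested, 0 were called by edgeR and 3 reached an unadjusted p of 0.05. Over all genes tested, edgeR called 0.423% and 8.56% reached that p, shares that apply to each list below. DESeq2 called 1 of the 76, where it called 569 of 16119 genes. The median log2 fold change of the 76 was -0.01, with 38 of 76 below 0, where all genes had a median of 0.05 and 40.3% below 0. Among surface receptors, 0 of 23 were called and 0 reached an unadjusted p of 0.05, with a median of -0.01. The lowest p were those of Ms4a6b (log2 fold change -0.40, SE 0.20; edgeR, adjusted p = 0.68), a relative of Ms4a6c, and Ms4a4c (-0.60, SE 0.30, adjusted p = 0.68).

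Among transcription factors of monocyte development, 0 of 11 were called. Of these, 9 were below 0, with a median of -0.16, where 40.3% of all genes were below 0. At an unadjusted p of 0.05, which 8.56% of all genes reached in either direction, 1 was lower. That gene was the immediate early factor Egr1, at 18.5, 5.35, 9.73 and 3.81 CPM in HFD replicates 1 to 4 and 15.2, 20.9, 31.5 and 16.5 CPM in CF replicates 1 to 4. HFD replicate 1 was the only HFD library within the CF range. Its log2 fold change was -1.17 with an SE of 0.48 (edgeR, adjusted p = 0.52). Irf5, a factor of inflammatory macrophages, had -0.43 with an SE of 0.24 (adjusted p = 0.74).

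Among 22 effectors, 0 were called and the median log2 fold change was 0.01. At an unadjusted p of 0.05, which 8.56% of all genes reached in either direction, 1 was higher. This was Ctsb, the lysosomal protease cathepsin B, at 0.58 with an SE of 0.18 (edgeR, adjusted p = 0.28). The chemokine Ccl9 had -0.55 with an SE of 0.31 (adjusted p = 0.74). Among 13 tested partners of the members, 0 were called and 1 was higher at an unadjusted p of 0.05, with a median of 0.04. Sdc4, a syndecan that binds fibronectin, had a log2 fold change of 0.78 with an SE of 0.20 (edgeR, adjusted p = 0.17) and was the gene DESeq2 called, at 0.77 (adjusted p = 0.026). The integrin chain Itgb3 had 1.10 with an SE of 0.52 (edgeR, adjusted p = 0.63), and 0.44 without HFD replicate 1, its highest library (adjusted p = 0.61). Of 13 genes related in sequence to a member, 0 were called and 0 reached an unadjusted p of 0.05, with a median of -0.01. Ms4a6d had -0.38 with an SE of 0.92, Ly6a 0.38 with an SE of 0.24, Lyz1 0.49 with an SE of 0.88 and Ly6c1 0.08 with an SE of 0.42 (edgeR, adjusted p = 0.78 to 0.98).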

How the data were processed

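CDP RNA of 8 libraries, 4 per diet, was analysed from the raw counts per gene that the authors deposited. By the methods and the submitters' processing notes, the authors mapped reads to GRCm38 with HISAT2, limited the data to pairs with a unique position, and obtained gene counts from StringTie on the GENCODE annotation. Versions, annotation release and strandedness are not given in the sources used here. Columns were matched to samples by the sample number at the end of their names. Of 16119 Ensembl identifiers, 16067 were found in GENCODE vM21, which gave names, coordinates and lengths. Members and lists were chosen with earlier results of these data known.

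In R 4.3.3, edgeR 4.0.16 was run with filterByExpr, TMM and a robust quasi-likelihood fit with diet as the only term, on all genes, with Benjamini-Hochberg adjustment and a threshold of 0.05. Log2 CPM used a prior count of 2. Single values were compared by exact two-sided permutation over 70 splits, and correlations by permutation over all pairings. Alternatives were RLE factors, library size alone, protein-coding genes alone, no filter, a filter of 1 CPM, DESeq2 1.42.0, limma voom (3.58.1), a linear model per gene, the replicate number as a block, the neutrophil list as a covariate and each library left out. Leaving out replicate 1 of both diets, and summing paralogs, were chosen after seeing the data. On counts simulated at these depths for the HFD and CF comparison (15759 genes, 199 changed), edgeR recovered 72.7% of genes changed 4-fold and 29.0% of those changed 2-fold, with 8 false calls. Each gene was drawn independently, without shifts shared by the genes of a library. The biological coefficient of variation of Lyz2, Fcgr1, Fn1 and Ly6c2 was 0.81, 0.67, 0.57 and 0.41, against a median of 0.25 over all genes. The recovery rates therefore do not carry over to these members.

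The genes named are the 6 members, from each list the 2 with the lowest p, the relatives Ly6c1, Lyz1, Ms4a6b and Ms4a6d, the 3 genes most alike each member and 10 most alike their mean, the 2 most abundant genes of the neutrophil, DC, B cell and tissue macrophage lists (those of further lists are not reported here), and Csf1r. BE692007 and the genes called under an alternative were named after their values were seen, and Flt3 and Kit as antigens of the sort. Of the 10 genes most alike the mean of the members, 1 is not reported here. Promoter sequences are those of RefSeq. Figures were drawn with Python and matplotlib.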

Additional observations from a re-analysis of the deposited data

How the results depend on the processing

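No member was called under any of the 19 alternatives (adjusted p from 0.16 to 1.00). The log2 fold change of Ly6c2 was -0.016 with the replicate block and -0.47 without replicate 1 of both diets, and from -0.27 to 0.35 with single libraries left out. That of Lyz2 was -0.45 with limma voom, -0.47 with the linear model, -0.77 with the replicate block, -1.48 without replicate 1 of both diets, and from -1.25 to 0.76 with single libraries left out. Ms4a6c was 0.057 with library size alone, a scaling that moved the median of all genes from 0.05 to 0.25. With single libraries left out Ms4a6c ranged from -0.32 to -0.01. F13a1, Fn1 and Fcgr1 were below 0 under every alternative, and with single libraries left out they ranged from -0.48 to -0.09, -0.98 to -0.07 and -1.43 to -0.57. Members at an unadjusted p of 0.05 numbered 1 without HFD replicate 1 (from 0 to 1 over single libraries left out) and 2 without replicate 1 of both diets, Lyz2 and Fcgr1 (log2 fold change -1.71; edgeR, adjusted p = 0.24), where 9.76% and 10.6% of all genes were lower at that p.

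Of the other genes in the 5 lists, DESeq2, the covariate and the fit without HFD replicate 1 called 1 each (Sdc4, Itgb3 and Sdc4, which are partners of the members; 0 to 1 over single libraries left out). Without replicate 1 of both diets 4 monocyte genes were called, all lower in HFD, namely Egr1, Ccl6, Cebpb and Apobec1, as were 350 of the 388 genes called there among 15827. Calls over all genes were 67, but 108 with library size alone (10 of them higher in HFD), 569 with DESeq2 (71 higher), 665 with the covariate (105 higher), 388 without replicate 1 of both diets (38 higher), 0 with protein-coding genes alone, with the linear model or with the block, and 0 to 200 with single libraries left out. F13a1 per kb was 42.4 with its longest transcript of 3952 bases as the divisor, in place of its 6739 bases of merged exons. The cause of the differences in calls was not tested. Replicate numbers did not pair the samples, with correlations of same-numbered deviations from -0.44 to -0.08 and 0 libraries closest to their own number. Among the members, Fcgr1 had the fewest counts and the largest counting error.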

Other observations

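Markers of other lineages were measured in the same libraries. The mean of the 6 members, each scaled to unit variance, had among its closest followers Il13ra1 (r = 0.98), Mefv, the gene of pyrin (0.98), Cask (0.97), Samhd1 (0.97), galectin-3 gene Lgals3 (0.97), the receptor gene Lilra6 (0.96), Csnk2b (0.96), the kinase gene Prkcd (0.96) and Ifi204 (0.95). These r are over 8 libraries that the genes share and are given with no test. None of these genes was called between the diets (edgeR, adjusted p = 0.84 to 0.96).

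Of 11 conventional DC genes, 9 had a log2 fold change below 0, with a median of -0.79. Their summed level was 264 to 641 CPM in HFD and 666 to 1222 CPM in CF, with Cd74 and H2-Aa the most abundant. Of 8 plasmacytoid DC genes, 8 were above 0, with a median of 0.81, and Runx2 and Tcf4 were the most abundant. Their summed level was 348 CPM in HFD replicate 1, below the CF range of 434 to 497 CPM, and 557 to 804 CPM in the other HFD replicates. Of 10 B cell genes, 9 were above 0, with a median of 0.76, and Ighm and Igkc were the most abundant. The summed level of this list was 1309 CPM in HFD replicate 1, 469 to 661 CPM in the other HFD replicates and 323 to 557 CPM in CF. With edgeR 0 genes of these 3 lists were called. At an unadjusted p of 0.05, which 8.56% of all genes reached, 4 conventional DC genes were lower, and 5 plasmacytoid DC and 6 B cell genes were higher. Tissue macrophage genes were scarce, with a summed level of 49.8 to 94.5 CPM in HFD and 49.0 to 83.4 CPM in CF, led by Cd163 and Cd68. Of 11 listed, 8 were tested, and 3 of the tested genes had 0 counts in at least 1 library.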
